A study of Rattus norvegicus with 12 samples.

Results

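Erythroid transcripts were examined in the left ventricle of 12 rats: every row of the deposited gene table whose symbol begins with Hba or Hbb, together with Alas2, Slc4a1 and Ahsp, provided that its counts summed to at least 10 over all rats. The members were thus chosen by name and by their summed counts over all groups, not by a difference between groups. The rule found 7 of 34700 genes, namely Hba-a1, Hba-a2, Hba-a3, Hbb, Alas2, Slc4a1 and Ahsp. The summed counts that admitted them ran from 49 for Ahsp to 75922 for Hba-a1, and 0 rows of the rule fell under the minimum.

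All rats were male Sprague-Dawley animals operated on at 8 weeks of age, and the hearts were taken 12 weeks after surgery. The Sham rats had the left anterior descending coronary artery threaded without ligation. The HF rats had the artery ligated and stayed sedentary. The HFE rats were ligated and then ran on a treadmill for 60 min per day on 5 days per week over 8 weeks. The BAIBA rats were ligated and received β-aminoisobutyric acid, a small molecule that working muscle releases, by gavage at 75 mg/kg per day over 8 weeks. Each group held 3 rats. The tissue came from the anterior left ventricular wall. The study's text names the border of the infarct for BAIBA rats in one place and for HF and BAIBA rats in another, so the exact site per group is unclear. No sham-operated rat trained or received BAIBA in these libraries, so ligation and treatment cannot be told apart when HFE or BAIBA is compared with Sham.

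Hemoglobin consists of α and β globin chains that each hold a heme. Red blood cell precursors make the chains and the heme in step: Alas2 encodes the erythroid enzyme that starts heme synthesis, Ahsp the chaperone of free α globin, and Slc4a1 the band 3 anion exchanger of the red cell membrane. Young red cells that have left the bone marrow still carry globin mRNA, so a piece of tissue with blood in it yields these transcripts. In bulk RNA, fewer cells of a type and less RNA per cell cannot be told apart.

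RefSeq (GRCr8) gave the start sites of 5 of the 7 genes. Their proximal promoters are shown as a description, and a relation of their motifs to the expression values was not tested. The sequences run up to the base before the start site. Capitals mark AGATAA or TGATAA (the core that GATA factors bind), CCACACCC (the β globin CACC box), CCAAT and TATAAA, each searched on both strands of the 250 upstream bases.
Hba-a1 (chr10:15842581-15842760, minus strand): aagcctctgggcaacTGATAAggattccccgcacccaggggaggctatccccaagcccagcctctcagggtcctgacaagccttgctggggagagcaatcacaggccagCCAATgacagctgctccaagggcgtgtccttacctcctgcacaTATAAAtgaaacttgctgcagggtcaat
Hba-a2 (chr10:15829139-15829318, minus strand): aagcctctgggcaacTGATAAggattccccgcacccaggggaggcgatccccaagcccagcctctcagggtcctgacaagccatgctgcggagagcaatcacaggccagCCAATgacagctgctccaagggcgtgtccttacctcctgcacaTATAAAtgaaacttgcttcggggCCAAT
Hba-a3 (chr10:15816944-15817123, minus strand): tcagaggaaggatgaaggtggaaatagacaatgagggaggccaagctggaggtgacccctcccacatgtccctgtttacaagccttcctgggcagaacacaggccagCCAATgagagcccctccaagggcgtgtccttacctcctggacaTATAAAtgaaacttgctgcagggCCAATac
Hbb (chr1:167663722-167663841, minus strand): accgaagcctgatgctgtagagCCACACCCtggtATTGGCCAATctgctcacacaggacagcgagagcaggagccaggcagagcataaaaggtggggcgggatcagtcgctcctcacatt
Alas2 (chrX:22895300-22895449, plus strand): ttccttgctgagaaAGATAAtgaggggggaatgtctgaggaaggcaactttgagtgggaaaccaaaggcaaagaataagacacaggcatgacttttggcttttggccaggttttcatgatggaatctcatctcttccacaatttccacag
The promoters of Hba-a1 and Hba-a2 had 241 of 250 bases in common (96.4%), and TGATAA lay at -165 to -160 in both. Hba-a3 shared 111 of 248 aligned bases with Hba-a1 (44.8%) and 80 of 98 (81.6%) next to the start site, where both held TATAAA and CCAAT. Neither AGATAA nor TGATAA lay in the 250 upstream bases of Hba-a3. In Alas2, AGATAA lay at -136 to -131. In Hbb, CCACACCC lay at -98 to -91, followed by a pair of adjoining CCAAT matches on opposite strands. Like Hba-a3, Hbb held neither AGATAA nor TGATAA in the 250 upstream bases. Of 33469 rat promoters of the same length, 16.9% held AGATAA or TGATAA, 2.84% CCACACCC, 34.0% CCAAT and 12.9% TATAAA.

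Total counts per library ran from 14812541 to 19732588. Defining markers of the heart muscle were abundant, the 8 cardiomyocyte genes summing to between 38651 and 47580 CPM (counts scaled to a common library size with TMM factors), and myoglobin (Mb), the heme protein of muscle, averaged 9206 ± 445 FPKM (SD, n = 12). One library stood apart: in HF rat 1 the T cell gene Cd3e was at 35.9 CPM, while it ranged from 0.923 to 3.46 CPM in the other 11 rats. Comparisons with HF are given with and without HF rat 1.

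Per length, Hba-a1 led. Over the 12 rats Hba-a1 averaged 695 ± 203 FPKM (SD), Hbb 433 ± 177 FPKM and Hba-a2 294 ± 105 FPKM. Hba-a3, another α globin row, reached 10.1 ± 6.30 FPKM. Alas2 stood at 4.34 ± 1.81 FPKM, Slc4a1 at 1.72 ± 1.37 FPKM and Ahsp at 0.439 ± 0.277 FPKM, all far under Mb. The α and β globin rows together took 0.0594% to 0.132% of a library's counts. That share was 0.0598% to 0.0894% in Sham, 0.0594% to 0.108% in HF, 0.0717% to 0.0899% in HFE and 0.105% to 0.132% in BAIBA, so that the BAIBA rats lay above every Sham and HFE rat but overlapped HF.

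Hba-a1, the most counted member, was at 274, 395 and 262 CPM in the Sham rats. The HF rats had 261, 505 and 437 CPM. The HFE rats had 367, 311 and 313 CPM. BAIBA rats reached 378, 653 and 492 CPM, above all HFE rats, although the lowest of them lay inside the range of Sham. Hba-a2, its near-identical neighbour, was lower but ran in parallel. It stood at 123, 180 and 102 CPM in Sham and at 106, 204 and 168 CPM in HF. The HFE values were 163, 120 and 123 CPM and the BAIBA values 163, 323 and 193 CPM, with the groups overlapping in all comparisons. The ratio of Hba-a1 to Hba-a2 counts stayed between 2.02 and 2.60 in every rat.

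Hbb, the β chain, was at 130, 195 and 229 CPM in Sham. The HF rats spread the most, at 126, 242 and 502 CPM, from the lowest to the highest value of the whole series. HFE rats had 288, 330 and 257 CPM and BAIBA rats 352, 306 and 486 CPM, and every rat of both groups exceeded every Sham rat.

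Alas2 was at 6.40, 5.64 and 4.27 CPM in Sham and at 5.56, 9.45 and 8.90 CPM in HF. The HFE rats had 5.46, 6.64 and 5.07 CPM, close to Sham. The BAIBA rats had 8.70, 16.5 and 8.86 CPM, all above the Sham and the HFE rats. HF overlapped with each of the other groups.

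Slc4a1 did not follow the globins. It was steady in Sham at 5.60, 3.83 and 5.19 CPM and scattered in each ligated group: 2.47, 14.7 and 7.84 CPM in HF, 3.93, 6.23 and 22.5 CPM in HFE, and 3.40, 5.26 and 20.02 CPM in BAIBA. HF and BAIBA each held 1 rat below all Sham rats, and every ligated group held at least 1 above them.

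Hba-a3 gave 39, 66 and 86 counts in Sham, 59, 0 and 0 counts in HF, 124, 58 and 79 counts in HFE and 124, 119 and 69 counts in BAIBA. HF rats 2 and 3, which were not low in Hba-a1 or Hba-a2, thus had no read on this row, where 3 counts would have been 0.152 to 0.203 CPM depending on the library. Ahsp was near the floor throughout: 4, 5 and 2 counts in Sham, 5, 4 and 11 in HF, 5, 1 and 1 in HFE, and 2, 7 and 2 in BAIBA. It was too low to pass the count filter of the main edgeR fit over all genes.

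**Figure D1:**
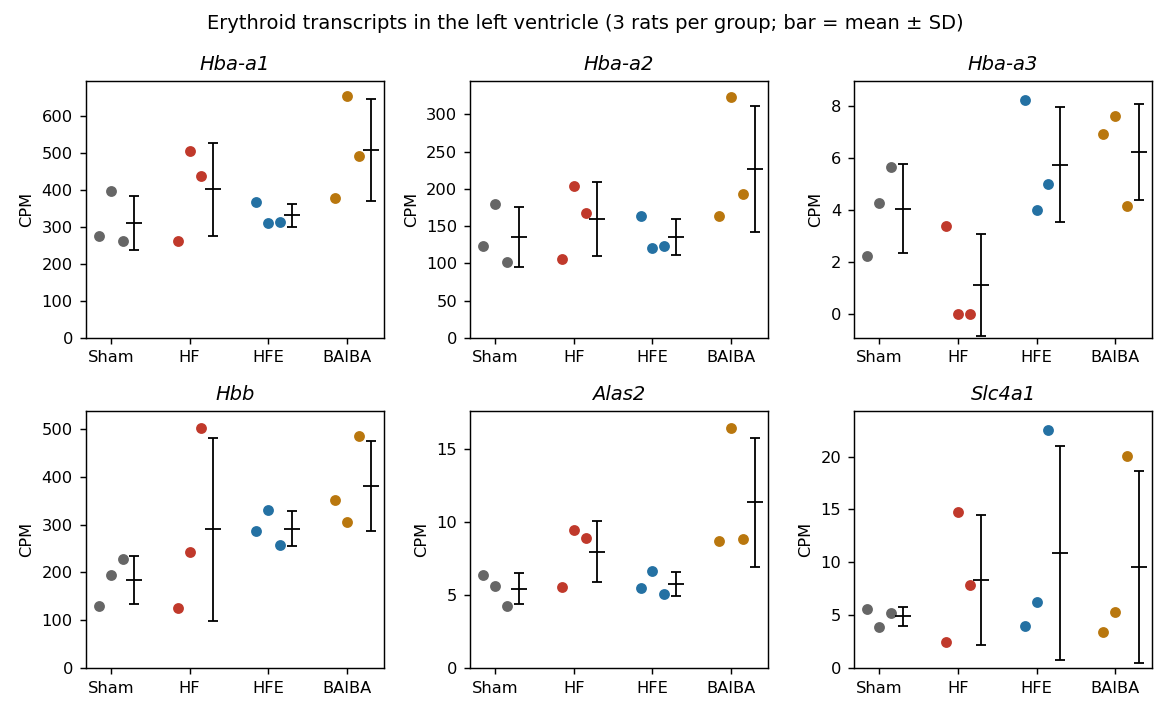
Expression of 6 members in CPM (vertical axis from 0 except where an SD bar runs below it) in Sham, HF, HFE and BAIBA, 1 point per rat in the order 1 to 3 and the mean ± SD to the right of each. Hbb and Alas2 of the BAIBA rats lie above those of all Sham rats, 2 HF rats are at 0 for Hba-a3, and Slc4a1 reaches 22.5 CPM in HFE rat 3 and 20.02 CPM in BAIBA rat 3.

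Of the 6 comparisons, BAIBA against Sham had the largest log2 fold changes of Hba-a1, Hba-a2, Hbb and Alas2, but none passed adjustment over the 14920 genes tested. Hbb averaged 381 ± 93.3 CPM (SD, n = 3) against 185 ± 50.1 CPM, a log2 fold change of 1.05 (SE 0.25) with an adjusted p = 0.420 in edgeR's quasi-likelihood test. Alas2 averaged 11.3 ± 4.45 CPM against 5.44 ± 1.08 CPM, with a log2 fold change of 1.06 (SE 0.29, edgeR adjusted p = 0.515). For Hba-a1 it was 0.71 (SE 0.23, edgeR adjusted p = 0.612) and for Hba-a2 0.75 (SE 0.31, edgeR adjusted p = 0.668). Of the 6 members tested 0 were called (adjusted p below 0.05 and a log2 fold change beyond 1 in size), against 0.0402% of all genes. At an unadjusted p below 0.05, 4 members were higher in BAIBA, against 4.13% of all genes, and 0 lower, against 3.28%. That count was 2 (Hbb and Alas2) without Sham rat 1 or without BAIBA rat 2, against 2.09% and 4.02% of all genes higher in those fits. The members do not vary independently: over the 12 rats Hba-a1 had r = 0.97 with Hba-a2 and r = 0.87 with Alas2. Counts of members, here and in the other comparisons, are therefore not counts of independent genes. All BAIBA rats lay above all Sham rats in 2 of 7 members, Hbb and Alas2, against 6.52% of all genes (6.17% lay below), and the exact permutation test gave its smallest possible p of 0.1 for both. DESeq2, run as an alternative, called Hbb alone (log2 fold change 1.05, SE 0.22, DESeq2 adjusted p = 0.000959). The median log2 fold change was 0.86 over the members tested and 0.00 over all genes.

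Compared with the HFE group, the BAIBA group had a log2 fold change of 0.99 (SE 0.28, edgeR adjusted p = 0.272) in Alas2 and of 0.62 (SE 0.19, edgeR adjusted p = 0.331) in Hba-a1. Neither passed, and 0 of 6 members were called against 0.0808% of all genes. The difference was 0.74 (SE 0.27) for Hba-a2, 0.39 (SE 0.18) for Hbb, 0.12 (SE 0.33) for Hba-a3 and -0.19 (SE 0.95) for Slc4a1 on the log2 scale. At an unadjusted p below 0.05, 3 members were higher in BAIBA, against 4.68% of all genes, and 0 lower, against 4.88%. All BAIBA rats lay above all HFE rats in Hba-a1 and Alas2, 2 of 7 members against 7.13% of all genes, with 8.37% below. In DESeq2 0 members were called, with Hba-a1 at an adjusted p = 0.0476 but under the fold threshold. The median log2 fold change was 0.50 over the members and 0.00 over all genes.

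Exercise was compared with Sham and with sedentary HF. In HFE against Sham the log2 fold change of Hbb was 0.66 (SE 0.21, edgeR adjusted p = 0.365), and DESeq2 gave it an adjusted p of 0.05003. Hba-a1 at 0.10 (SE 0.16), Hba-a2 at 0.01 (SE 0.23) and Alas2 at 0.08 (SE 0.21) were near 0. Of 6 members 0 were called, as were 0% of all genes, and 1 of 6 had an unadjusted p below 0.05, against 6.04% of genes higher and 5.15% lower in HFE. All HFE rats lay above all Sham rats in 1 of 7 members (Hbb), against 9.5% of genes, with 8.24% below. The 1 member at an unadjusted p below 0.05 became 2 without Sham rat 2 (Hbb and Hba-a1) or HFE rat 1 (Hbb and Slc4a1), against 4.69% and 5.09% of genes higher, and 0 without HFE rat 2. In HFE against HF, 0 of 6 members were called (0% of all genes) and 0 had an unadjusted p below 0.05, against 4.34% of genes higher and 3.29% lower in HFE. Alas2 differed by -0.48 (SE 0.24), Hba-a1 by -0.28 (SE 0.23) and Hbb by 0.01 (SE 0.49) on the log2 scale. Only Hba-a3 was without overlap, above HF in all HFE rats (exact permutation p = 0.1), 1 of 7 members against 8.26% of genes, with 6.16% below.

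In HF against Sham, 0 of 6 members were called (0% of all genes), and 0 had an unadjusted p below 0.05, against 2.47% of genes higher and 3.53% lower in HF. In 0 of 7 members were the rats of both groups without overlap, against 5.25% of genes with all HF rats above and 6.55% with all below. The log2 fold changes were 0.65 (SE 0.52) for Hbb, 0.55 (SE 0.26) for Alas2, 0.37 (SE 0.27) for Hba-a1, 0.24 (SE 0.30) for Hba-a2 and 0.77 (SE 0.59) for Slc4a1. HF rat 1 weighed on these: it had the lowest Hba-a1, Hbb and Slc4a1 of all 12 rats. Without HF rat 1, 4 members had an unadjusted p below 0.05 in HF against Sham (Hba-a1 0.60, Alas2 0.75, Slc4a1 1.21 and Hba-a3), against 4.27% of genes higher and 4.25% lower in that fit. In HFE against HF there were 4 as well (Hba-a1 -0.51, Hba-a2 -0.46, Alas2 -0.68 and Hba-a3), against 5.06% higher and 5.05% lower, and in both 0 were called by adjusted p. Leaving out HF rat 2 instead lowered the log2 fold changes of HF against Sham to 0.08 (SE 0.49) for Slc4a1, 0.16 (SE 0.28) for Hba-a1 and 0.01 (SE 0.30) for Hba-a2. Leaving out HF rat 3 brought Hbb to -0.0014 (SE 0.35). For the fits without HF rat 1, no fold change of Hba-a3 is given, since both remaining HF rats had 0 counts. In those fits Hba-a3 was lower in HF, opposite to the other members named. The part of the T cell transcripts of HF rat 1 in these values was not tested.

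In BAIBA against HF, 0 of 6 members were called (0% of all genes), and the lowest adjusted p of edgeR was 0.852. An unadjusted p below 0.05 was reached by 0 members, against 2.81% of genes higher and 2.73% lower in BAIBA. With the replicate block it was reached by 2, Hba-a1 and Hba-a2, against 2.99% higher and 3.28% lower, and in 1 fit over all 12 rats by 1, Hba-a3, against 4.04% and 4.49%. Without HF rat 1 it was reached by 1, Hba-a3, whose remaining HF rats are both at 0 (3.83% and 3.93%), and without HF rat 3 by 1, Hbb at 1.05 (SE 0.33; 2.14% and 2.40%). The log2 fold changes were 0.51 (SE 0.32) for Hba-a2, 0.51 (SE 0.31) for Alas2, 0.39 (SE 0.49) for Hbb and 0.34 (SE 0.28) for Hba-a1. Without HF rat 1 they were 0.29 (SE 0.30) for Hba-a2, 0.31 (SE 0.31) for Alas2, 0.04 (SE 0.34) for Hbb and 0.11 (SE 0.23) for Hba-a1. Hba-a3 was the 1 of 7 members with all BAIBA rats above all HF rats, against 6.01% of genes, with 5.37% below. DESeq2 called 0 members in HF against Sham, HFE against HF, BAIBA against HF and HFE against Sham. The comparisons share groups: the differences of BAIBA from Sham and from HFE, for example, use the same BAIBA rats.

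**Figure D2:**
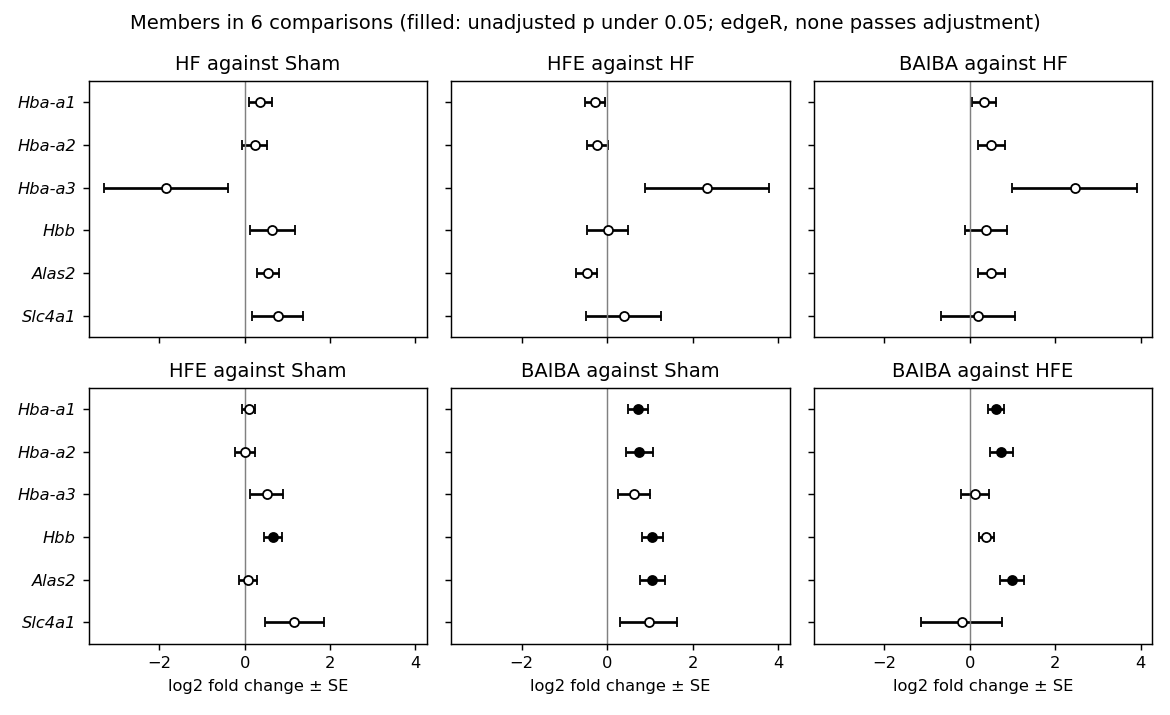
Log2 fold change ± SE (horizontal axis) of 6 members in each of the 6 comparisons, with filled points where the unadjusted p of edgeR is below 0.05. Points are filled for 4 members in BAIBA against Sham, 3 in BAIBA against HFE and 1 in HFE against Sham, and the widest bars are those of Hba-a3 in the comparisons with HF.

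The Hbb row is one of 3 adult β globin rows in the file. LOC103694857 and LOC103694855, both named by the file as β-2 hemoglobin subunits or like them, lie outside the rule and were looked at after the values were seen. Hbb took 64.2%, 65.8% and 81.4% of the β counts in Sham and 64.9%, 68.2% and 95.1% in HF. It took 82.5%, 93.2% and 83.5% in HFE and 82.2%, 79.7% and 93.5% in BAIBA. LOC103694857 took most of the rest, from 4.25% in HF rat 3 to 34.5% in Sham rat 1, and LOC103694855 0.653% to 3.16%. The share of the Hbb row thus varied within as well as between groups, and across rats the log2 CPM of Hbb and LOC103694857 had r = -0.60 (n = 12, a description, since the rows are near copies and share libraries).

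With the 3 β rows summed, BAIBA exceeded Sham by 0.78 (SE 0.17) on the log2 scale, less than the 1.05 of the Hbb row alone, and HFE exceeded Sham by 0.38 (SE 0.14) rather than 0.66. LOC103694857 itself differed by -0.32 (SE 0.42) between BAIBA and Sham. The summed α rows differed by 0.73 (SE 0.25) between BAIBA and Sham, close to the value of the summed β rows, and by 0.08 (SE 0.18) between HFE and Sham. How the authors' counting treated reads that match several copies is not given in the sources used here, so a single globin row is uncertain. Summed α over summed β FPKM averaged 1.94 ± 0.507 (SD, n = 12), from 1.36 in HF rat 3 to 3.04 in BAIBA rat 2.

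**Figure D3:**
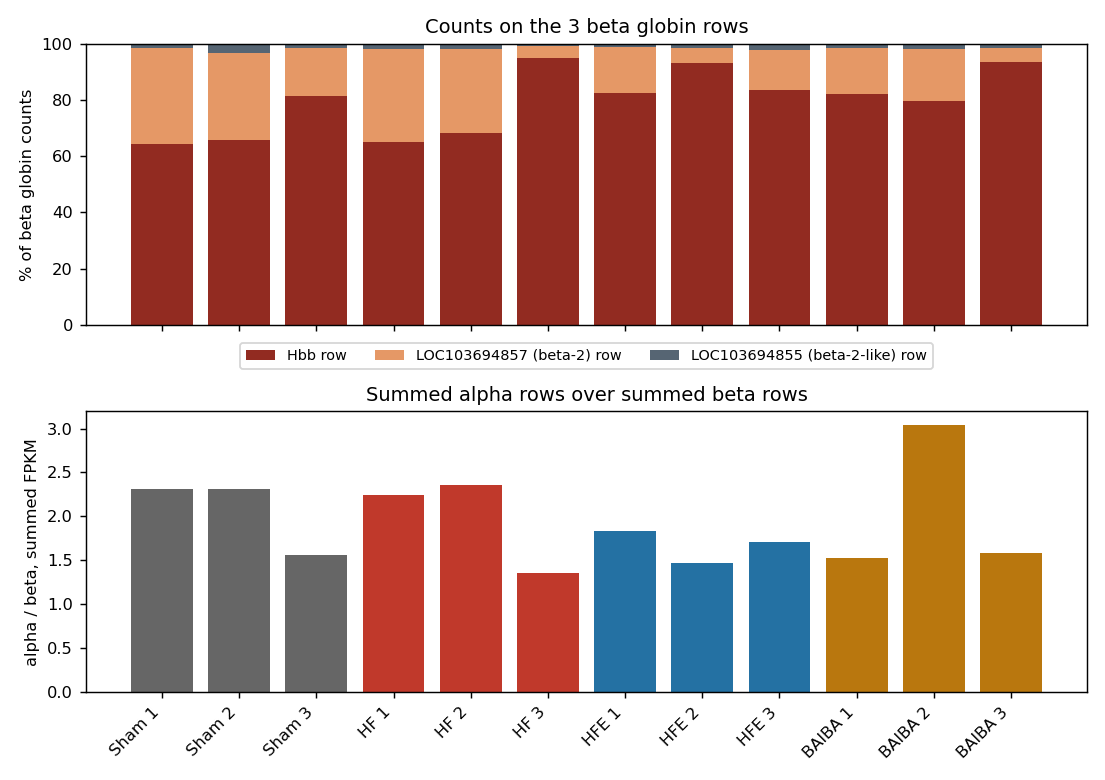
Above, the share of β globin counts on each of the 3 rows per rat (percent). Below, summed α over summed β FPKM per rat, coloured by group, which ranges from 1.36 to 3.04; the Hbb row takes between 64.2% and 95.1% of the β counts.

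Across the 12 rats Hba-a1 and Hba-a2 varied almost as one (r = 0.97 of log2 CPM, a description, since they are near copies). Of 4 relations tested, Hba-a1 with Alas2 was the one that passed: Pearson's r = 0.87 (permutation p = 0.00033, Benjamini-Hochberg adjusted p = 0.00132) and Spearman's rho = 0.80 (permutation p = 0.00284, adjusted p = 0.0114). Taken as deviations from the group means it was r = 0.75 (permutation p, adjusted, 0.0237), and without the 2 rats farthest from the median of Hba-a1 it was r = 0.78 (n = 10, permutation p, adjusted, 0.046) with rho = 0.77, which did not pass (permutation p, adjusted, 0.0517). Hba-a1 with Hbb gave r = 0.58 (permutation p = 0.0484, adjusted p = 0.0969) and rho = 0.55 (permutation p = 0.0659, adjusted p = 0.132), and r = 0.56 without those 2 rats. Hba-a1 with Slc4a1 gave r = 0.31 (permutation p = 0.327, adjusted p = 0.436) and rho = 0.36 (permutation p = 0.246, adjusted p = 0.328), and r = 0.35 without those 2 rats. With Mb, r was -0.09 (permutation p = 0.793) and rho -0.04 (permutation p = 0.906), and r was -0.36 without those 2 rats. Within a group of 3 rats no correlation can be tested.

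**Figure D4:**
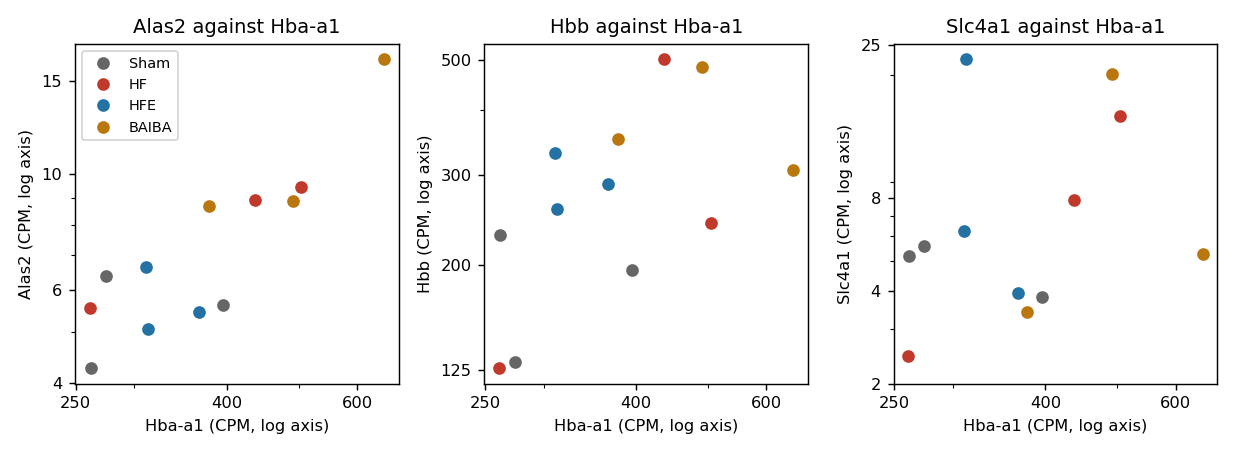
Alas2, Hbb and Slc4a1 (CPM, log axes) against Hba-a1 (CPM, log axis), 1 point per rat, coloured by group. Alas2 rises with Hba-a1 (r = 0.87), Hbb does so loosely (r = 0.58), and Slc4a1 scatters (r = 0.31).

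The members were left out of a search for the genes whose log2 CPM was most like that of Hbb. Among the 14208 other genes compared, these were Ric3 (r = 0.88), Spag8 (0.88), Asrgl1 (0.85), Pld2 (0.84) and Dtx3 (0.82). Psmc5, Bet1l, Gabarapl2, Tmem110 and Tnks1bp1 followed, each over 12 rats. No globin or heme gene from outside the members was among these 10, and the members themselves could not appear. The genes most like Slc4a1 were looked up after the values were seen, also without the members and as a description. They included Acadvl (r = 0.84), Cd300lg (0.83), Cmtm8 (0.82), Lpl (0.81), Cabp1 (0.80) and Cplx2 (0.80). The same search for Hba-a1, again without the members, was led by Taf11 (r = 0.88). Hba-a2 (r = 0.97 with Hba-a1) and Alas2 (r = 0.87) are members and so were not candidates.

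Several defining erythroid genes were near 0. Gata1, the leading erythroid transcription factor, had 0 counts in all libraries, Klf1 had 0 to 10 counts, Hemgn 2 to 17 and Epb42, which binds band 3, 1 to 14. The marker lists of other blood cells were low. The 8 platelet genes summed to 9.26 to 9.35 CPM in Sham, 9.80 to 10.8 in HF, 10.7 to 12.4 in HFE and 9.65 to 16.0 in BAIBA. The 10 neutrophil genes summed to 4.53 to 7.26 CPM in Sham, 2.58 to 14.0 in HF, 3.17 to 6.30 in HFE and 4.43 to 6.03 in BAIBA. Lymphocyte genes summed to 4.92 to 6.61 CPM in Sham, 3.65 to 108 in HF, 6.02 to 7.32 in HFE and 5.61 to 12.2 in BAIBA. The part of blood left in the tissue in the globin values was not tested.

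Heme is also made and broken down in heart cells, by genes outside the members. Alas1, the synthase that all cells use for the first step, averaged 176 ± 16.5 CPM in Sham, 175 ± 33.6 in HF, 244 ± 19.2 in HFE and 140 ± 31.0 in BAIBA (SD, n = 3). In HFE it thus stood above every other group, with a log2 fold change of 0.47 (SE 0.09, edgeR adjusted p = 0.170) against Sham and, for BAIBA against HFE, of -0.79 (SE 0.16, edgeR adjusted p = 0.164). By group mean, Alas2 was highest (11.3 CPM) and Alas1 lowest in BAIBA, but for both genes the BAIBA rats overlapped the HF rats. A relation between Alas1 and Alas2 was not tested. The 12 heme synthesis genes summed to 596 to 617 CPM in HFE, above all other rats, whose sums ran from 429 to 546 CPM. Without Alas1 the groups overlapped: the other 11 genes summed to 370, 366 and 353 CPM in HFE, against 365 CPM in HF rat 3 and 368 CPM in BAIBA rat 3. In HFE against Sham 7 of the 12 genes had a positive log2 fold change, with a median of 0.06.

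The heme clearance genes went both ways in HFE. Of 9 tested against Sham, 4 were lower (Hmox1, Cd163, Lrp1 and Slc48a1) and 1 higher (Blvrb) at an unadjusted p below 0.05. Among all genes, 5.15% were lower and 6.04% higher at that threshold. The median log2 fold change of the 9 was -0.08. Blvrb, a biliverdin reductase, averaged 38.1 ± 2.76 CPM in HFE against 29.8 ± 0.627 in Sham (log2 fold change 0.36, SE 0.09, edgeR adjusted p = 0.263). Hp and Flvcr1 also had their highest means in HFE, at 2.32 and 3.61 CPM. Their means in HF were close, at 2.01 and 3.53 CPM, and the HFE rats overlapped the HF rats for both. Hmox1, which opens the heme ring, averaged 6.94 ± 1.48 CPM in HFE against 15.8 ± 2.10 in Sham, 13.8 ± 5.37 in HF and 15.1 ± 4.83 in BAIBA. Its log2 fold change was -1.18 (SE 0.18, edgeR adjusted p = 0.121) in HFE against Sham. Cd163, the macrophage receptor for hemoglobin bound to haptoglobin, averaged 10.4 ± 2.91 CPM in HFE against 17.3 ± 5.07 in Sham, 26.4 ± 13.3 in HF and 24.9 ± 1.90 in BAIBA. In BAIBA against HFE it differed by 1.25 (SE 0.19, edgeR adjusted p = 0.0986). Neither passed in edgeR. DESeq2 called Hmox1 in HFE against Sham (-1.19, SE 0.22, DESeq2 adjusted p = 7.182e-05) and in BAIBA against HFE (1.12, SE 0.29, DESeq2 adjusted p = 0.00881), and Cd163 in BAIBA against HFE (1.26, SE 0.22, DESeq2 adjusted p = 1.179e-05).

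Of the erythroid, heme synthesis, heme clearance, other globin, platelet, neutrophil, lymphocyte, cardiomyocyte, endothelial, fibroblast and atrial lists, 0 genes were called by edgeR in any of the 6 comparisons, with 62 to 65 list genes tested in each. At an unadjusted p below 0.05, 12 of 62 were higher and 11 lower in HFE against Sham, against 6.04% and 5.15% of all genes. In HFE against HF it was 9 and 2 of 64 (4.34% and 3.29% of all genes). In BAIBA against HFE it was 6 and 8 of 63 (4.68% and 4.88%). BAIBA against Sham had 3 and 5 of 63 (4.13% and 3.28%). HF against Sham had 1 and 4 of 63 (2.47% and 3.53%), and BAIBA against HF 0 and 2 of 65 (2.81% and 2.73%). Beside Hmox1 and Cd163, DESeq2 called the atrial genes Myl7, in BAIBA against Sham and against HF, and Sln, in BAIBA against Sham, all lower in BAIBA. The 4 atrial genes summed to 30.5 to 441 CPM in Sham, 69.8 to 538 in HF, 28.6 to 195 in HFE and 12.3 to 215 in BAIBA, and the part of the sampled site in the globin values was not tested.

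**Figure D5:**
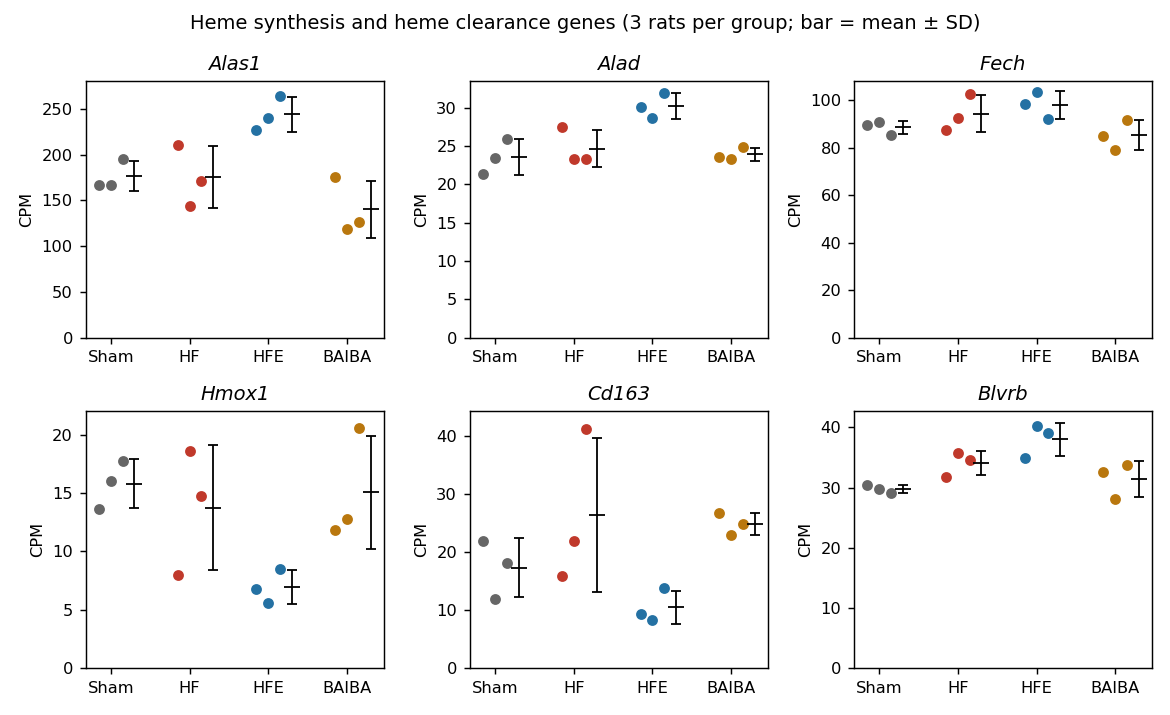
CPM of 3 heme synthesis genes (Alas1, Alad, Fech) and 3 heme clearance genes (Hmox1, Cd163, Blvrb) per rat in the 4 groups, with the mean ± SD beside the points. Alas1 averages 244 CPM in HFE and 140 CPM in BAIBA, and Hmox1 averages 6.94 CPM in HFE.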

How the data were processed

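RNA from the left ventricle of 12 rats in 4 groups of 3 (Sham, HF, HFE, BAIBA, grouped by the labels) was sequenced as oligo(dT)-selected paired-end libraries. Per the submitters' processing notes the tools were HISAT2, StringTie, featureCounts (Subread) and DESeq2, with versions not given in the sources used here, and the notes name the mouse build mm9 although the gene identifiers are rat Ensembl ones. The authors deposited raw read counts per gene and FPKM values (scaled for gene length and library size). Strand and multi-mapping settings are not given in the sources used here.

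Counts were fitted with edgeR 4.0.16 (R 4.3.3; TMM, filterByExpr, robust quasi-likelihood test) on the 2 groups compared, and p-values were adjusted over all genes tested by Benjamini-Hochberg; a call needed an adjusted p below 0.05 and a log2 fold change beyond 1 in size. Deposited FPKM were used for levels between genes and, as log2(FPKM + 1), in limma 3.58.1; DESeq2 1.42.0, other scalings, other filters, a replicate block and each rat left out were alternatives. For single members an exact permutation test (two-sided) was run on log2(CPM + 0.1), where 3 against 3 rats cannot go below p = 0.1, and relations by 100000 permutations. Intervals and floors cover counting error only. p-values measure the spread between these rats only. Replicate libraries were compared and none were identical (chi-square per degree of freedom 11.8 to 33.7). The scripts were tested on simulated data.

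Every member is named. The other genes named are list genes that passed the test, measured erythroid, heme synthesis, heme clearance and other globin genes, the most counted genes of the other lists and the 10 genes most like Hbb; LOC103694857, LOC103694855, Cd3e, the atrial genes that DESeq2 called and the genes most like Hba-a1 and Slc4a1 were added after values were seen. Results that the rule would add for 3 further genes are not reported here. Members and lists were chosen with earlier results of these data known. Rats with the same number in different groups are different animals, yet in BAIBA against HFE every same-numbered pair deviated together (r = 0.195, 0.261 and 0.138 over genes); with the block 32 genes were called there instead of 12, and 0 members either way.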

Additional observations from a re-analysis of the deposited data

How the results depend on the processing

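In all fits other than DESeq2, which called Hbb (1 member) in BAIBA against Sham, 0 members were called in each of the 6 comparisons; this held with each rat left out in turn (0 to 0) and with the replicate block, under which 0 members were called in each comparison. Over all genes, DESeq2 called 78 genes in BAIBA against Sham (edgeR 6), 171 in BAIBA against HFE (edgeR 12), and 72 in HFE against Sham, 31 in BAIBA against HF, 24 in HF against Sham and 22 in HFE against HF (edgeR 0 in each). In BAIBA against Sham the log2 fold change ranged over the alternatives from 0.83 to 1.23 for Hbb, 0.68 to 1.22 for Alas2 and 0.48 to 0.92 for Hba-a1. Of the single-gene values, 515 kept their direction and side of the threshold, and 24 changed sign. Hba-a2 in HFE against Sham was -0.0415 with library sizes alone, -0.02015 with limma on log2(FPKM + 1) and -0.02015 on log2(FPKM + 0.1), and -0.15 to 0.27 with single rats left out. Hbb in HFE against HF was -0.00026 with library sizes alone and -0.35 to 0.66 with single rats left out. With single rats left out, HFE against Sham ranged from -0.068 to 0.21 for Alas2 and from -0.0093 to 0.30 for Hba-a1, Hba-a3 in BAIBA against HFE from -0.084 to 0.47 and Hbb in HF against Sham from -0.0014 to 1.01. Slc4a1 ranged from -0.94 to 0.88 in BAIBA against HF, -1.33 to 0.91 in BAIBA against HFE, -0.18 to 1.38 in BAIBA against Sham and -0.71 to 1.07 in HFE against HF. The r of Hba-a1 with Mb was 0.207 as deviations from group means. The causes were not tested. Ahsp, at 1 to 11 counts per rat, did not pass the count filter of the main edgeR fit. It entered only the exact permutation test, DESeq2, limma and the edgeR fit without that filter, with counts near the floor.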
